A study of Mus musculus with 3 samples.

Results

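Goblet cell and other colonic epithelial genes were measured by RNA-seq in macrophages sorted from mouse colon, cells that should carry little of this RNA. The group was a list of 35 genes, found by their symbols among the 23997 genes of the deposited table and kept without any filter on low values. The genes were chosen by name as epithelial markers and with their FPKM values in these libraries known, among them values near 0 in WT and higher ones in Tle4cKO, so these values are a description. The list holds 10 goblet cell genes, 6 genes of absorptive cells and 19 genes shared by epithelial cell types. The sorted cells were negative for Siglec-F, low for Ly6C and positive for CD64, a gate for resident macrophages. They came from untreated male C57BL/6 mice whose age is given as 8.9 weeks in one label and 9 weeks in another. Tle4cKO mice carried floxed Tle4 alleles with Lyz2-Cre (labelled Tle4f/f Lyz2-Cre), Tle3cKO mice carried floxed Tle3 alleles with Lyz2-Cre (Tle3f/f Lyz2-Cre), and WT mice carried Lyz2-Cre alone. Lyz2-Cre drives recombination in myeloid cells, so all 3 genotypes share the Cre and none was designed to delete a gene in epithelium. Cells of 4 Tle4cKO, 3 Tle3cKO and 4 WT mice were pooled by genotype and each pool gave 1 library, so that mice cannot be told apart, no spread was measured, and no difference below has a replicate check or a test.

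The colon is lined by a single sheet of epithelial cells. Absorptive colonocytes take up water and salts, and goblet cells secrete the mucus that keeps bacteria away from the tissue. Goblet cells belong to the secretory lineage, which depends on the transcription factor Atoh1, and they release the mucin Muc2 with a set of small proteins that act in the mucus or against microbes. Epithelial cells as a whole are marked by keratins, by cadherins, claudins and Epcam at their contacts, and by intestinal factors such as Cdx1, Cdx2 and Hnf4a. Macrophages lie directly beneath this sheet.

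The libraries differed little in their total FPKM (fragments per kilobase of transcript for every 1000000 fragments mapped), which was between 569961 and 610714. The steps between the lowest values, read from genes with 1 annotated transcript, put the depth behind the scaling at about 20200000 fragments in Tle4cKO and about 16400000 in each of the other libraries. The targeted genes were read first as a check. Tle4 was at 5.8 FPKM in Tle4cKO, 11 in the library labelled Tle3cKO and 8.5 in WT. Tle3 had 70.7 FPKM in the library labelled Tle3cKO, 46.9 in Tle4cKO and 38.6 in WT, so the value goes against the label of the first of these. A gene-level sum need not show the loss of some exons. Macrophage genes were detected in all libraries: 13 of 14 listed ones, with Csf1r, Cd68 and the C1q chains among them, had rows, none was at 0, and they summed to 6031 FPKM in Tle4cKO, 5669 in the library labelled Tle3cKO and 6271 in WT. Adgre1 had no row under that symbol. The levels were uneven: in WT Mertk was at 4.46 FPKM, Cx3cr1 at 8.35 and Lyz2 at 10.4, against 1443 for C1qb.

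Most goblet cell and epithelial genes had their highest values in the Tle4cKO library. Their 35 values summed to 76 FPKM in Tle4cKO, 21.5 in the library labelled Tle3cKO and 18 in WT, which is 0.0127%, 0.00377% and 0.00295% of each total in the same order. Tle4cKO held the highest value for 30 of the 34 genes above 0 in any library, the library labelled Tle3cKO for 4 and WT for none. Over all 17009 genes above 0 those shares were 32.6%, 34.5% and 32.9%. In bulk RNA from a sort, fewer cells of a type and less RNA per cell cannot be told apart.

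Of the 35 genes, 10 were at least 2-fold higher in Tle4cKO than in WT and none was 2-fold lower, on the log2(FPKM + 1) scale that is used for every log2 ratio here and that understates differences of low genes. Over all genes 0.133% (32 of 23997) were at least 2-fold higher in this comparison and 0.258% were 2-fold lower. Of the 35 genes 31 were under 1 FPKM in WT, and all 10 were among these, where 0.217% of all such genes were 2-fold higher. Since the list was drawn up with this contrast known, nothing is read from these counts. The library labelled Tle3cKO had no listed gene at least 2-fold above WT, where 0.142% of all genes passed (0.163% of those under 1 FPKM in WT), and none 2-fold below, where 0.146% did. Between Tle4cKO and the library labelled Tle3cKO, 9 listed genes were at least 2-fold higher in Tle4cKO, against 0.167% of all genes and 0.194% of those under 1 FPKM in WT. None was 2-fold lower in that comparison, against 0.275% of all genes. This comparison uses the same Tle4cKO library as the first, so the 2 are not separate evidence.

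**Figure D1:**
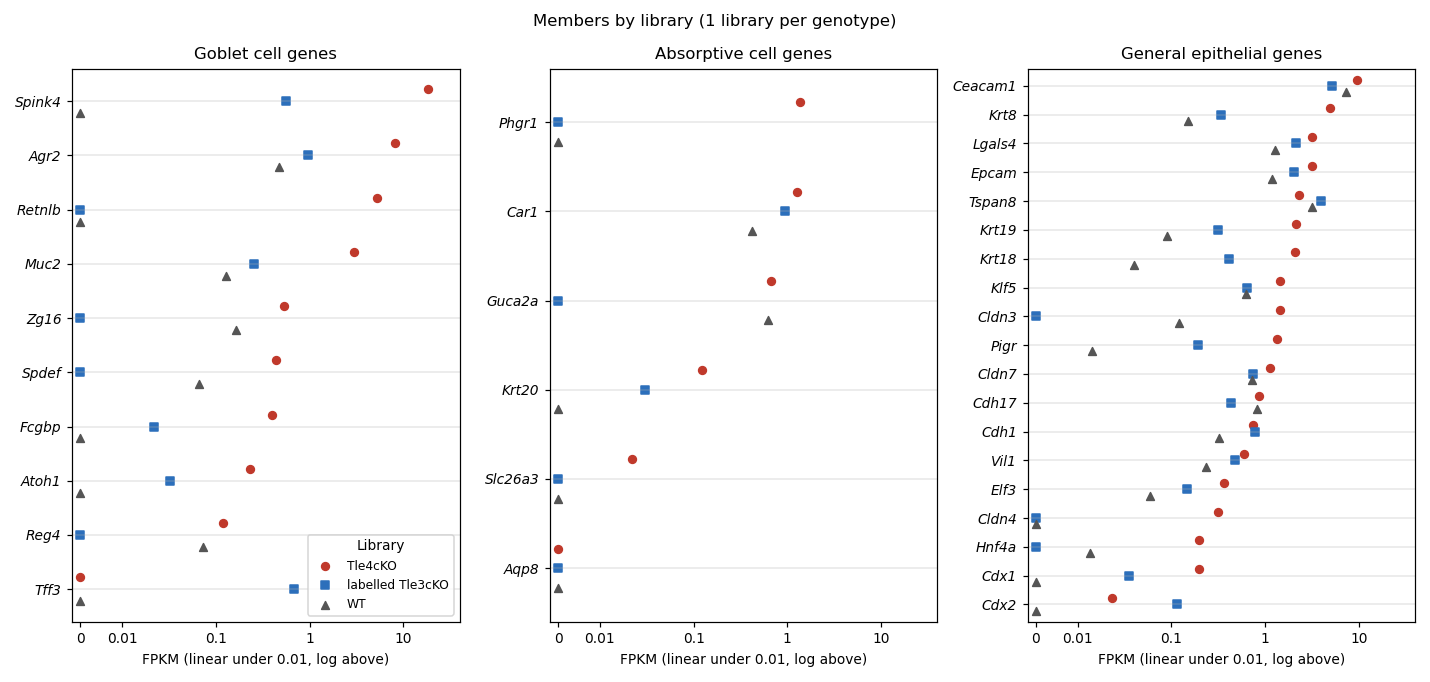
FPKM of each of the 35 genes in the Tle4cKO library (circles), the library labelled Tle3cKO (squares) and WT (triangles), in 3 panels by kind of gene, on an axis that is linear under 0.01 and logarithmic above. The circles lie farthest right for 30 genes; Spink4 reaches 18.6 FPKM, while Tff3 and Aqp8 sit at 0 in Tle4cKO.

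The start regions of 4 genes that were at least 2-fold higher in Tle4cKO than in WT are shown, a pair of goblet cell genes and the keratin pair. They were picked, with their values known, from the 7 such genes that had a region in the sequence set used. Spink4, Retnlb and Krt19 had none there. Each sequence is the 250 bases before the start annotated in RefSeq (GRCm38.p6, the mm10 build), on the gene's own strand. The gene positions given elsewhere here are from GENCODE M21. They put the starts of Agr2 (35992907), Krt8 (102004482) and Krt18 (102028180) inside these windows. Distances below are to the RefSeq start. Capitals mark matches on either strand to the letters searched.
Muc2 (chr7:141690090-141690339, plus strand): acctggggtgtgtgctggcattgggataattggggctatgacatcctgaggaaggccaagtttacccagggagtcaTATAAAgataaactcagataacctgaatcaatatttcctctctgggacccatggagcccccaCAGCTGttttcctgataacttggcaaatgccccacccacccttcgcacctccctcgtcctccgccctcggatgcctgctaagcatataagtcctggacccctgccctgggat
Agr2 (chr12:35992675-35992924, plus strand): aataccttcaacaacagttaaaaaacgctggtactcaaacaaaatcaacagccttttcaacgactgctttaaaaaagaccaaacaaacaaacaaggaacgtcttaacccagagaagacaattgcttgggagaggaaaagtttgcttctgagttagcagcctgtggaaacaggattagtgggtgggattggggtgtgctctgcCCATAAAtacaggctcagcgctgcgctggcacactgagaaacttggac
Krt8 (chr15:102004343-102004592, minus strand): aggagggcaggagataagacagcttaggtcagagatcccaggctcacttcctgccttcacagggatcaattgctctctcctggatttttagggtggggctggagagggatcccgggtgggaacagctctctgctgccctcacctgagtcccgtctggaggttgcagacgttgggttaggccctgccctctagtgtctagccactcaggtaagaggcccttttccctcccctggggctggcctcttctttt
Krt18 (chr15:102027966-102028215, plus strand): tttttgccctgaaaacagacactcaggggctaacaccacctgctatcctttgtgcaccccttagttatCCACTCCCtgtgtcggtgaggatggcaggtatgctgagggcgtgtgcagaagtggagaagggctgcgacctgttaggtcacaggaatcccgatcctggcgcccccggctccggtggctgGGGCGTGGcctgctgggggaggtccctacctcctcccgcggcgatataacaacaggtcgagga
The letters of 5 motifs were searched on both strands: the TATA box as TATAAA, a site of the CDX factors as TTTATNG, a site of HNF4 as CAAAGTNCA, a site of KLF factors as GGGNGTGG and the E-box CAGCTG, the kind of site that Atoh1 and related factors bind. The Muc2 region held TATAAA at 174 bases and CAGCTG at 112 bases before the start. The Agr2 region held the CDX letters, read on the other strand as CCATAAA, at 48 bases. The Krt18 region held the KLF letters at 182 and at 63 bases, and the Krt8 region held none of the 5 motifs. RefSeq regions of 25 of the 35 genes were searched, in 27 start regions, among them 7 of the 10 that were 2-fold higher. Any region of Cdx1 was left out of these counts, while the set of all regions was not cut in this way. The KLF letters were in 9 of these 27 regions and in 15.9% of all 32851 regions of the same length. CAGCTG was in 7 of the 27 and in 13% of all, TATAAA in 3 of the 27 and in 12.4%, TTTATNG in 3 of the 27 and in 9.81%, and CAAAGTNCA in none of the 27 and in 1.19%. A match describes letters in this window and is not shown to be a site.

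Goblet cell genes made up 61.6% of the difference between the summed FPKM of Tle4cKO and WT and general epithelial genes 34.2%. The 10 goblet cell genes summed to 36.6 FPKM in Tle4cKO, 2.53 in the library labelled Tle3cKO and 0.901 in WT. Their share of the whole list therefore differed between libraries: the goblet sum was 1.02 times the sum of the 19 general epithelial genes in Tle4cKO, 0.141 times in the library labelled Tle3cKO and 0.056 times in WT. A few genes set these sums. In Tle4cKO 4 goblet cell genes made up 95.3% of the goblet sum. In WT Ceacam1 and Tspan8 made up 64.7% of the general epithelial sum. Of the 10 genes, 9 were higher in Tle4cKO than in WT, 4 of them at least 2-fold, and Tff3 was listed at 0 in both. Over all genes 34.5% (8285) were higher in Tle4cKO than in WT by any amount, 8360 were lower and 7352 were equal. The median log2 ratio of the 10 was 0.45 for Tle4cKO against WT and 0.04 for the library labelled Tle3cKO against WT, where the median over all genes was 0 in both. The 19 general epithelial genes had medians of 0.39 and 0.16 in the same comparisons.

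**Figure D2:**
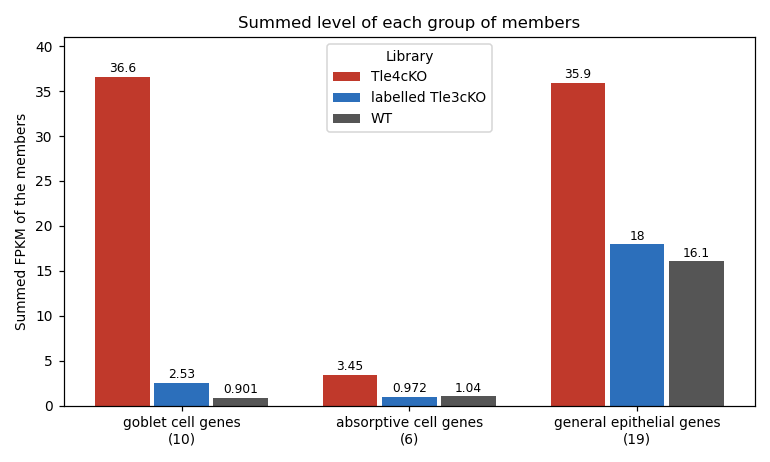
Summed FPKM of the 10 goblet cell genes, the 6 absorptive cell genes and the 19 general epithelial genes, with 1 bar per library. Goblet cell genes stand at 36.6 in Tle4cKO, 2.53 in the library labelled Tle3cKO and 0.901 in WT.

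Spink4 encodes a secreted protein of the Kazal type, a family of serine protease inhibitors, and is made by goblet cells (ENSMUSG00000028415.4, chromosome 4, 40920052 to 40931395). It was at 18.6 FPKM in Tle4cKO, 0.56 in the library labelled Tle3cKO and was listed at 0 in WT. The log2 ratio of Tle4cKO to WT was 4.29, rank 2 among all 23997 genes, after a small nucleolar RNA. The Tle4cKO value rested on about 74 to 149 fragments and that of the library labelled Tle3cKO on about 2 to 4. The lower end of each such range uses the shortest annotated protein-coding transcript with 200 bases taken off. The upper end uses the longest one in full. Spink4 alone was 50.7% of the goblet sum in Tle4cKO.

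Retnlb encodes resistin-like molecule beta, which goblet cells secrete and which acts on bacteria and worms (ENSMUSG00000022650.7, chromosome 16, 48816856 to 48818892). It was at 5.23 FPKM in Tle4cKO, on about 52 to 74 fragments, and was listed at 0 in the library labelled Tle3cKO and in WT. Its log2 ratio of 2.64 for Tle4cKO against WT had rank 3 among all genes. The related Retnla, a product of macrophages, was lower in Tle4cKO, at 180.4 FPKM against 242.9 in WT, and had 140.1 FPKM in the library labelled Tle3cKO, so the level of Retnlb did not follow that of its relative across the libraries.

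Agr2, a protein of the endoplasmic reticulum that goblet cells need for making mucin, was at 8.1 FPKM in Tle4cKO, 0.971 in the library labelled Tle3cKO and 0.468 in WT (ENSMUSG00000020581.11, chromosome 12, 35992907 to 36004087). These values rested on about 96 to 128, 9 to 12 and 4 to 6 fragments in that order, and the log2 ratios were 2.63 for Tle4cKO and 0.43 for the library labelled Tle3cKO, each against WT. Muc2, the main gel-forming mucin of the colon, was at 3.0 FPKM in Tle4cKO, 0.256 in the library labelled Tle3cKO and 0.128 in WT (ENSMUSG00000025515.15, chromosome 7, 141690340 to 141754693). Its log2 ratio for Tle4cKO against WT was 1.82, rank 10 of all genes. The protein-coding Muc2 transcripts in the GENCODE M21 set used here are between 399 and 2032 bases, too far apart for a useful number of fragments. Whether they hold the full mRNA was not checked. Both genes had the same order of libraries, and Agr2 was 2.7 times Muc2 in Tle4cKO, 3.79 times in the library labelled Tle3cKO and 3.65 times in WT.

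The other 6 goblet cell genes were low everywhere, with sums of 1.72 FPKM in Tle4cKO, 0.743 in the library labelled Tle3cKO and 0.305 in WT. Fcgbp, a large protein of the mucus layer, was at 0.394 FPKM in Tle4cKO and 0.0217 in the library labelled Tle3cKO and was listed at 0 in WT. Because its transcript is long, the Tle4cKO value still rested on about 62 to 63 fragments, and the middle value on about 3. Zg16, a lectin that binds bacterial cell walls, was at 0.536 FPKM in Tle4cKO, listed at 0 in the library labelled Tle3cKO and at 0.165 in WT, with at most about 7 fragments in any of them.

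Tff3, a trefoil peptide of the mucus, was the exception: it was listed at 0 in Tle4cKO and in WT and stood at 0.689 FPKM in the library labelled Tle3cKO. That value rested on about 3 to 6 fragments, and a listed 0 can be a failed estimate. Reg4, a C-type lectin family protein of deep crypt secretory cells, was at 0.12 FPKM in Tle4cKO, listed at 0 in the library labelled Tle3cKO and at 0.0732 in WT, on no more than about 2 fragments.

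The transcription factors of the goblet lineage were detected at low levels with the same high library. Atoh1, which commits cells to the secretory lineage, was at 0.232 FPKM in Tle4cKO, on about 9 to 10 fragments, and 0.0322 in the library labelled Tle3cKO, on about 1, and was listed at 0 in WT. Spdef, an ETS factor for goblet cell maturation, was at 0.437 FPKM in Tle4cKO, on about 12 to 17 fragments, listed at 0 in the library labelled Tle3cKO and at 0.0664 in WT, on about 1 to 2. Neither reached 2-fold on the log2(FPKM + 1) scale, with log2 ratios of 0.30 and 0.43 for Tle4cKO against WT.

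**Figure D3:**
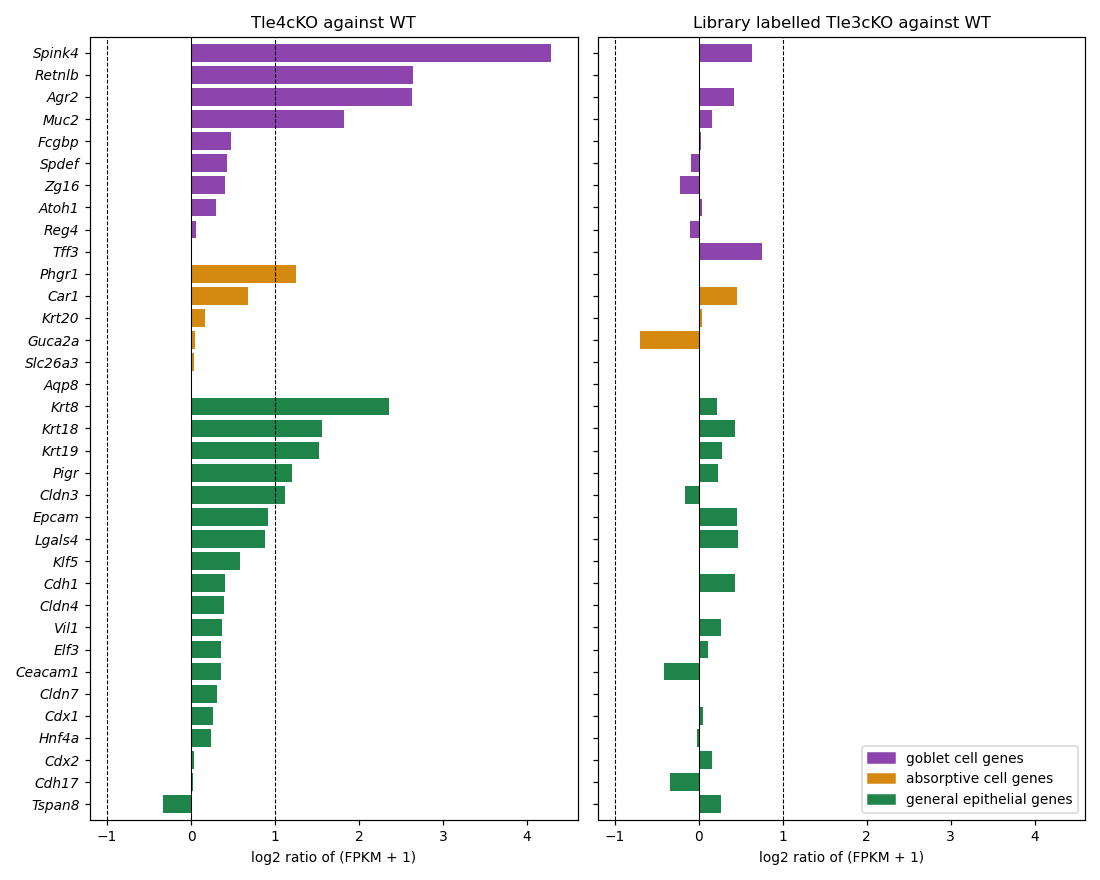
Log2 ratio of FPKM + 1 for each of the 35 genes, Tle4cKO against WT on the left and the library labelled Tle3cKO against WT on the right, with dashed lines at 2-fold in each direction and bar colours for the kind of gene. On the left 10 bars pass the upper line, led by Spink4 at 4.29; on the right none does.

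Absorptive cell genes were few and low. The 6 genes summed to 3.45 FPKM in Tle4cKO, 0.972 in the library labelled Tle3cKO and 1.04 in WT, and their log2 ratios for Tle4cKO against WT had a median of 0.10. Phgr1 was the member that passed 2-fold, at 1.37 FPKM in Tle4cKO, on about 9 to 15 fragments, and listed at 0 in the other libraries. Car1, a carbonic anhydrase of colonocytes, was at 1.26 FPKM in Tle4cKO, 0.942 in the library labelled Tle3cKO and 0.418 in WT. Guca2a, the hormone guanylin that regulates salt secretion, was about equal in Tle4cKO and WT, at 0.672 and 0.623 FPKM, and was listed at 0 in the library labelled Tle3cKO. Krt20, a keratin of mature surface cells, was at 0.122 FPKM in Tle4cKO and 0.0302 in the library labelled Tle3cKO and was listed at 0 in WT. The ion exchanger Slc26a3 was at 0.0218 FPKM in Tle4cKO, about 1 fragment, and at 0 elsewhere, and the water channel Aqp8 was listed at 0 in all 3 libraries. With so few members and fragments, whether goblet and absorptive cell genes differed from each other in their ratios was not tested.

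General epithelial genes ranged in WT from a listed 0 to 7.27 FPKM. The 19 summed to 35.9 FPKM in Tle4cKO, 18 in the library labelled Tle3cKO and 16.1 in WT. In Tle4cKO 18 of them were above WT, 5 at least 2-fold, and the log2 ratios had a median of 0.39. In the library labelled Tle3cKO 14 were above WT, with a median of 0.16. Over all genes 35.1% were above WT there and 33.8% below.

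The keratins led this group. Krt8, which pairs with Krt18 in the filaments of simple epithelia, was at 4.9 FPKM in Tle4cKO, 0.337 in the library labelled Tle3cKO and 0.15 in WT (ENSMUSG00000049382.10, chromosome 15, 101996698 to 102004482). The values rested on about 174 to 194, 10 to 11 and 4 to 5 fragments in that order. The log2 ratio of Tle4cKO to WT, 2.36, had rank 5 among all genes. Its partner Krt18 was at 2.07 FPKM in Tle4cKO, 0.409 in the library labelled Tle3cKO and 0.0399 in WT, and Krt19, a further keratin of simple epithelia, was at 2.12, 0.319 and 0.0892 FPKM in the same libraries. Their log2 ratios for Tle4cKO against WT were 1.56 and 1.52. Krt8 shares exon bases with the annotated gene Gm36026, and reads of the 2 cannot be told apart where strand is not given. In all 3 keratins the library labelled Tle3cKO stood between the others.

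Junction and surface genes showed a wider range. Pigr, the receptor that carries IgA across the epithelium, was at 1.34 FPKM in Tle4cKO, on about 99 to 104 fragments, 0.192 in the library labelled Tle3cKO and 0.0143 in WT, on about 1. Cldn3, a tight junction claudin, was at 1.43 FPKM in Tle4cKO, listed at 0 in the library labelled Tle3cKO and at 0.121 in WT. Its exons overlap the annotated gene Wbscr25. Pigr and Cldn3 both passed 2-fold against WT, with log2 ratios of 1.21 and 1.12. The claudins Cldn4 and Cldn7 did not: Cldn4 was at 0.311 FPKM in Tle4cKO and at 0 in the other libraries, and Cldn7 was at 1.13 FPKM in Tle4cKO, 0.747 in the library labelled Tle3cKO and 0.726 in WT.

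Epcam, an adhesion molecule of epithelial cells, was present in every library, at 3.14 FPKM in Tle4cKO, 2.02 in the library labelled Tle3cKO and 1.2 in WT. Lgals4, an intestinal galectin, was very close to it in each, at 3.17, 2.13 and 1.27 FPKM in the same order. The log2 ratios for Tle4cKO against WT were 0.91 and 0.88, just under 2-fold. Krt8 was thus 1.56 times Epcam in Tle4cKO, 0.166 times in the library labelled Tle3cKO and 0.126 times in WT. Cdh1, the adherens junction cadherin, was about equal in Tle4cKO and the library labelled Tle3cKO, at 0.752 and 0.782 FPKM, with 0.325 in WT. The microvillus protein Vil1 was at 0.596 FPKM in Tle4cKO, 0.483 in the library labelled Tle3cKO and 0.235 in WT, and the cadherin Cdh17 was at 0.855, 0.436 and 0.822 FPKM in the same order.

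Ceacam1, an adhesion receptor that leukocytes also carry, was the highest listed gene in WT. It was at 9.6 FPKM in Tle4cKO, 5.21 in the library labelled Tle3cKO and 7.27 in WT. Tspan8, a tetraspanin, was the only listed gene lower in Tle4cKO than in WT, at 2.29 FPKM against 3.14 in WT, and had 3.96 FPKM in the library labelled Tle3cKO. These 2 genes made up 33.1% of the general epithelial sum in Tle4cKO, 51% in the library labelled Tle3cKO and 64.7% in WT.

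Among 5 transcription factors of the intestinal epithelium, Klf5 was the highest in each library and the other 4 were under 0.4 FPKM in all. Klf5, which is not restricted to epithelium, was at 1.43 FPKM in Tle4cKO, 0.644 in the library labelled Tle3cKO and 0.627 in WT. Elf3, an epithelial ETS factor, was at 0.362, 0.149 and 0.06 FPKM in the same order. Hnf4a, a nuclear receptor of the gut lining, was at 0.199 FPKM in Tle4cKO, on about 17 to 18 fragments, listed at 0 in the library labelled Tle3cKO and at 0.0134 in WT. Cdx1 was at 0.197 FPKM in Tle4cKO, 0.0352 in the library labelled Tle3cKO and at 0 in WT. Cdx2 was highest in the library labelled Tle3cKO, at 0.115 FPKM on about 4 fragments, against 0.0231 in Tle4cKO and a listed 0 in WT. None of the 5 factors reached 2-fold in Tle4cKO against WT.

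The difference from WT was smaller in the library labelled Tle3cKO. In it 22 of the 35 genes were above WT, 8 below and 5 equal, with a median log2 ratio of 0.05. In Tle4cKO 32 were above WT, 1 below and 2 equal, with a median of 0.40. Set directly against the library labelled Tle3cKO, Tle4cKO was above it in 30 genes and below in 4, namely Tff3, Cdh1, Cdx2 and Tspan8, where 34.9% of all genes were higher and 34.7% lower by any amount. The 9 genes at least 2-fold higher there were the same as against WT apart from Pigr, whose log2 ratio was 0.97.

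Depth limits the low values. By the lower estimate, 24 of the 35 genes had at least 10 fragments in Tle4cKO, 11 in the library labelled Tle3cKO and 8 in WT. The 24 included Muc2, at about 12 fragments from its shortest annotated transcript. In WT 21 genes were under 3 fragments by the upper estimate, so the ratios of single genes to WT are imprecise.

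Further epithelial genes beyond the 35 were read from lists of other markers. Of 20 rows named for further goblet cell genes, the row Clca1 lies where GENCODE release M21 places Clca3a1 (chromosome 3, 144730315 to 144760739) and is not counted. Of the other 19 genes 14 were higher in Tle4cKO than in WT, 4 were lower and 1 was past 2-fold, with a median log2 ratio of 0.22, and 0.15 with the row Clca1. Over all genes 34.5% were higher in that comparison and 0.133% at least 2-fold. The library labelled Tle3cKO was above WT in 12 of the 19 and below in 4, with a median of 0.05. Tle4cKO was above the library labelled Tle3cKO in 10 of them and below in 7, with a median of 0.02. The sums of the 19 genes were 13.5 FPKM in Tle4cKO, 9.42 in the library labelled Tle3cKO and 6.77 in WT. The gene past 2-fold was Klk1, a tissue kallikrein, at 2.03 FPKM in Tle4cKO, 0.305 in the library labelled Tle3cKO and at 0 in WT. The gene named Clca3 in the table lies where that release places Clca1, a goblet cell protein of the mucus (chromosome 3, 145004536 to 145032776), and was at 0.927 FPKM in Tle4cKO, listed at 0 in the library labelled Tle3cKO and at 0.0207 in WT. The mucin Muc13 was at 0.628, 0.023 and 0.0222 FPKM, and the trefoil gene Tff1 at 0.459, 0.592 and 0 FPKM, in the same order.

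Of 19 measured further absorptive cell genes 11 were higher in Tle4cKO than in WT, with a median of 0.05, and Mptx1 passed 2-fold, at 2.84 FPKM in Tle4cKO, 0.113 in the library labelled Tle3cKO and 0.109 in WT. The sum of this list was no higher in Tle4cKO, at 57.8 FPKM against 59.6 in WT, because Ggh and Slc26a2, which these macrophage libraries held at high levels throughout, made up most of it. Of 21 further general epithelial genes 17 were higher in Tle4cKO than in WT, none 2-fold, with a median of 0.09. Their sum ran the other way, at 144.6 FPKM in Tle4cKO, 136.4 in the library labelled Tle3cKO and 167.1 in WT. Spint1, an inhibitor of serine proteases, was at 130 FPKM in Tle4cKO, 125.5 in the library labelled Tle3cKO and 156.3 in WT, and the other 20 genes summed to 14.6, 10.9 and 10.7 FPKM in the same order. Krt7 was at 1.03 FPKM in Tle4cKO, 0.283 in the library labelled Tle3cKO and 0.0695 in WT, and Rab25, a small GTPase of epithelial vesicle traffic, was at 0.67 FPKM in Tle4cKO and 0 in both others.

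Enteroendocrine cells, the hormone-making part of the secretory lineage, had low values with the same high library. Their 10 listed genes summed to 3.36 FPKM in Tle4cKO, 0.624 in the library labelled Tle3cKO and 0.895 in WT, and 7 of the 10 were higher in Tle4cKO than in WT, none 2-fold. Pyy, the hormone peptide YY, was at 0.989 FPKM in Tle4cKO and Chgb, a protein of secretory granules, at 0.627, and both were listed at 0 in the other libraries. Tph1, which makes serotonin, was at 0.616 FPKM in Tle4cKO, 0.048 in the library labelled Tle3cKO and 0.163 in WT, while Sct, the hormone secretin, was at 0.177, 0 and 0.619 FPKM. The sum of tuft cell genes did not share the order. Their 6 genes summed to 2.65 FPKM in Tle4cKO, 4.55 in the library labelled Tle3cKO and 3.64 in WT. Avil and Gnat3 made up most of each sum. Avil was at 0.738 FPKM in Tle4cKO, 2.45 in the library labelled Tle3cKO and 0.574 in WT. Gnat3 was at 1.38, 1.28 and 2.41 FPKM in the same order. The 5 stem cell genes summed to 0.999, 0.983 and 0.715 FPKM in the same order.

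**Figure D4:**
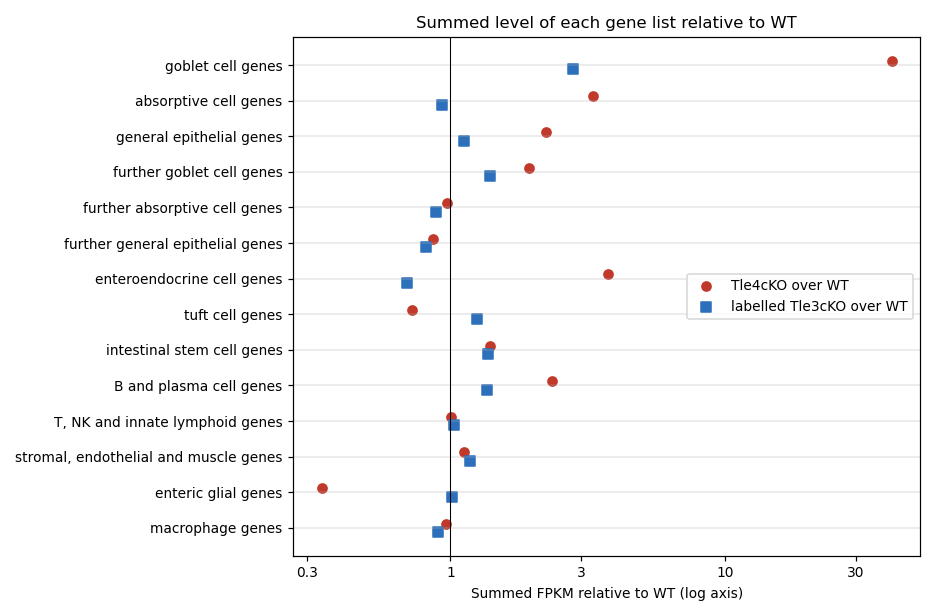
Summed FPKM of each gene list relative to WT on a log axis, for Tle4cKO (circles) and the library labelled Tle3cKO (squares). In Tle4cKO the sum of the 10 goblet cell genes, chosen with these values known and 95.3% from 4 genes, was 40.6 times that of WT. The 20 further goblet cell rows were at 1.93 times, the further general epithelial genes at 0.866 times, the enteroendocrine genes at 3.75 times and the enteric glial genes at 0.34 times.

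Markers of other non-macrophage cells also differed between the same libraries. All 10 measured B and plasma cell genes were higher in Tle4cKO than in WT, 2 at least 2-fold, with sums of 362.5 FPKM in Tle4cKO, 210.1 in the library labelled Tle3cKO and 154.1 in WT and none at 0 in any library. Over all genes 34.5% were higher in Tle4cKO than in WT by any amount and 0.133% at least 2-fold. The same 10 were also above WT in the library labelled Tle3cKO. Against that library 8 were higher in Tle4cKO and 2 lower. The antibody J chain gene Igj was at 192.3 FPKM in Tle4cKO, 57.9 in the library labelled Tle3cKO and 46.9 in WT. All 7 enteric glial genes were lower in Tle4cKO than in WT, 4 at least 2-fold, where 34.8% of all genes were lower by any amount. The glial sums were 13.6 FPKM in Tle4cKO, 40.5 in the library labelled Tle3cKO and 40 in WT, and none of these genes was at 0. The 12 stromal, endothelial and muscle genes summed to 290.8, 305.7 and 259.7 FPKM, and the 9 measured T, NK and innate lymphoid genes to 351.1, 360.9 and 349.4 FPKM, in the same order of libraries. Il7r, the interleukin-7 receptor, carried most of the lymphoid sum, at 331.6, 341.9 and 337 FPKM, and the other 8 genes summed to 19.5 FPKM in Tle4cKO, 19 in the library labelled Tle3cKO and 12.4 in WT. Among those 8, the T cell receptor component Cd3e was at 1.7 FPKM in Tle4cKO, 1.55 in the library labelled Tle3cKO and 0.401 in WT, and the granzyme gene Gzma was at 0.154, 1.46 and 0.0938 FPKM. The part of these cells in the epithelial gene values was not tested.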

How the data were processed

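RNA of Siglec-F-negative, Ly6C-low, CD64-positive colonic macrophages was taken with TRIzol from cells pooled by genotype, per the labels' protocols, giving 1 library per genotype. The authors deposited FPKM for each of 23997 genes, per the file headers. The submitters' processing notes name TopHat2 2.1.0, Cufflinks 2.2.1 and the build mm10 without their roles. No source used here gives the read length or whether strand was kept. Estimated division of reads among gene copies makes near-identical genes uncertain, and 5 members share exon bases with another annotated gene, namely Krt8, Cldn3, Vil1, Elf3 and Tspan8.

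Groups came from the sample titles. Log2 ratios used FPKM plus 1 with no filter, and genes at 2-fold or more were counted. With 1 library per group no test was possible. The members and lists were chosen with earlier results of these data known. All 35 members are reported, with up to 4 genes of each other list that differed most between any 2 libraries. Ggh, Slc26a2, Spint1, Il7r, the row Clca1, Csf1r, Cd68, Lyz2 and the C1q chains were named after their values were seen.

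Depth was estimated from the lowest FPKM values of genes with 1 transcript in GENCODE M21, times transcript length. The number of fragments behind a value is the FPKM times a transcript length, over the worth of 1 fragment. The lower end took the shortest protein-coding transcript of the gene less 200 bases, and the upper end the longest in full. Such numbers are approximate and cover counting only. The fits to the lowest values took 140 bases off the length in Tle4cKO, 225 in the library labelled Tle3cKO and 130 in WT, while 200 was used for every range. The steps were run on simulated data with 1 length per gene, which does not show how well they hold for these libraries. Identifiers and gene positions are from GENCODE M21. Alternatives tried were pseudocounts of 0.1 and 5, a filter, 2 scalings, thresholds of 1.5-fold and 3-fold and leaving out Ceacam1 and Klf5. Software was numpy 2.4.6, pandas 2.3.3, matplotlib 3.10.9 and Python 3.11.15.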

Additional observations from a re-analysis of the deposited data

How the results depend on the processing

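The counts of listed genes at least 2-fold higher depended on the pseudocount. For Tle4cKO against WT the count was 25 with a pseudocount of 0.1 (2.19% of all genes) and 3 with one of 5 (0.0292%), beside 10 as reported. For the library labelled Tle3cKO against WT it was 8 with 0.1 (2.34% of all genes), beside 0. For Tle4cKO against the library labelled Tle3cKO it was 20 with 0.1 (1.91% of all genes) and 3 with 5 (0.0375%), beside 9. A mean of at least 1 FPKM left 9 of the 35 genes, of which 5 were 2-fold higher in Tle4cKO against each other library. Of all 11114 genes left, 0.162% were 2-fold higher against WT and 0.207% against the library labelled Tle3cKO. A gene could pass that filter through Tle4cKO alone. At 3-fold both Tle4cKO counts were 5 (0.0583% of all genes in each comparison). At 1.5-fold they were 13 against WT (0.863% of all genes) and 13 against the library labelled Tle3cKO (0.704%), and 2 genes passed in the library labelled Tle3cKO against WT (0.979%). The medians for Tle4cKO against WT were 2.02, 0.72 and 1.32 for goblet, absorptive and general epithelial genes at a pseudocount of 0.1, and 0.11, 0.024 and 0.11 at 5. With the filter they were 2.64 for goblet and 0.88 for general epithelial genes. No absorptive gene passed that filter, so that alternative gave no median. Both scalings and leaving out Ceacam1 and Klf5 left these counts and medians within 1.5 times. No log2 ratio of a listed gene had another sign under either scaling; a pseudocount cannot change the sign. No paired analysis was possible because each genotype had 1 library.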

Other observations

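In Tle4cKO 6 genes were at 2 FPKM or more with under 0.2 FPKM in both other libraries, against 1 such gene in the library labelled Tle3cKO and 3 in WT. Those of Tle4cKO were Retnlb, Mptx1, the small membrane protein gene Smim22 (3.12 FPKM, and 0 in both others), the cornified envelope gene Sprr1a (2.27, 0.108 in the library labelled Tle3cKO and 0 in WT), the joined globin row Hbb-b1,Hbb-bs (2.59, 0.000884 and 0.106 in the same order) and Snora23 (284.9, and 0 in both others). These genes were named with their values known. FPKM of RNAs as short as Snora23 is uncertain.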
